A study of Mus musculus with 8 samples.

Results

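The EGF receptor family and its ligands were examined in KPC tumors as 10 genes chosen by name, of 29968 genes in the table. They comprise the receptor genes Egfr, Erbb2 and Erbb3 and the ligand genes Areg, Ereg, Hbegf, Tgfa, Btc, Epgn and Nrg1. All 10 genes were found, and 9 of them passed the filter on low counts, Epgn being the exception. RNA was sequenced from 8 pancreatic tumors, 4 grown in WT hosts (C57BL/6J) and 4 in hosts that lack complement C3 (C3-/-). All hosts were male mice aged 12 weeks that received KPC FC1245 cells in 50 μL of PBS in the tail of the pancreas, and the endpoint was day 14. KPC FC1245 is a single mouse pancreatic cancer cell line derived from a tumor of a genetically engineered mouse, so both groups share the same tumor cells, which retain the C3 gene, and differ in the host.

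EGF receptor family members are receptor tyrosine kinases that act in pairs. Egfr binds EGF-type ligands, Erbb2 has no known ligand of its own and serves as a partner, and Erbb3 binds neuregulins but has very weak kinase activity and signals mainly through its partner and PI3K. The ligands are made as membrane-bound precursors that proteases such as Adam17 and Adam10 cut free. In pancreatic ductal adenocarcinoma, EGF receptor signaling is known to feed the MAPK cascade, which in turn switches on feedback inhibitors and several of the ligand genes.

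Total counts per tumor ran from 13266029 to 23354212. C3 transcripts, the check of the host genotype, were counted in every tumor, at 210 to 426 CPM (counts scaled to the normalized library total) in WT tumors and at 100 to 134 CPM in C3-/- tumors, so the groups did not overlap (log2 difference -1.42, SE 0.23, adjusted p = 0.933 in edgeR and 1.28e-05 in DESeq2). The counts do not separate C3 transcripts of the implanted cells from those of the host. Epithelial markers were all detected, and the summed level of the 8 listed genes was 6040 to 10100 CPM in WT tumors and 5320 to 9000 CPM in C3-/- tumors. Markers of normal pancreas and of muscle varied widely. The summed level of 7 acinar genes was 163 to 427 CPM in WT tumors, 1460 CPM in C3-/- replicate 1 and 38.5 to 65.6 CPM in the other C3-/- tumors, and that of 6 skeletal muscle genes ran from 13.8 to 3080 CPM over the 8 tumors. In RNA from whole tumors, fewer cells of a type and less RNA per cell cannot be told apart, nor can tumor cells and host cells as the source of a transcript.

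Of the ligand genes, 4 are neighbors on chromosome 5 of mm39. Epgn (epigen) lies from 91175323 to 91183074, Ereg (epiregulin) from 91222481 to 91241505, Areg (amphiregulin) from 91287458 to 91296291, and Btc (betacellulin), on the minus strand, from 91505120 to 91550853. They span 375.5 kb, with gaps of 39.4, 46.0 and 208.8 kb and 0 other protein-coding genes between them in GENCODE vM39. These neighbors ranged from the lowest level of the family to a high one, so the 250 bases before the start of the canonical transcript are shown for each, 5′ to 3′ on the strand of the gene, read from the mm39 genome. Capitals mark matches on either strand to the AP-1 motif TGANTCA, the cAMP response element TGACGTCA, the TATA box TATAAA and the GC box GGGCGG.
Epgn: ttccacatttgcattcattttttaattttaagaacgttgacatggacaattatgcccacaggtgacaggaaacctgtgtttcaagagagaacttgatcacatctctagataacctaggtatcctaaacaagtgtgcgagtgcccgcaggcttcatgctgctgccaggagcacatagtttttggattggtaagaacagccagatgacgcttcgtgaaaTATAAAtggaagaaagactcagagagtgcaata
Ereg: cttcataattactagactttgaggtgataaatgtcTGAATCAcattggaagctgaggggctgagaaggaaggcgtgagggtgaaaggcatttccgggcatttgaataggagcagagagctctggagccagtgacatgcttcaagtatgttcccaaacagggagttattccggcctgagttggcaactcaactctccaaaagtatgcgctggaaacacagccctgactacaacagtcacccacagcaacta
Areg: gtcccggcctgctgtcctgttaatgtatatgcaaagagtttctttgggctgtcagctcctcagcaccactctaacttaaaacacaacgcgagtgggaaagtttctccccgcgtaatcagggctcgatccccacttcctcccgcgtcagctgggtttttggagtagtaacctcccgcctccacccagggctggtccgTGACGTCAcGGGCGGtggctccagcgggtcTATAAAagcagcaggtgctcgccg
Btc: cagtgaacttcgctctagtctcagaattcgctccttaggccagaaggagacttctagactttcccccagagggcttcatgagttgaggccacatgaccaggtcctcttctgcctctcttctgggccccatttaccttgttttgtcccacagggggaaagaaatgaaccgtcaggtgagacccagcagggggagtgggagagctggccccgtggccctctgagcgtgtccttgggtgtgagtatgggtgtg
The windows lie on chromosome 5 at 91175073 to 91175322 (Epgn), 91221907 to 91222156 (Ereg), 91287201 to 91287450 (Areg) and 91550884 to 91551133 (Btc). They follow the canonical starts of GENCODE vM39, whereas the gene coordinates above were listed with the counts. Of the 10 members, 1 had the same start and end in both. The Ereg window thus ends before the Ereg start given above, and motif positions refer to the vM39 start. The Areg window held a cAMP response element with its first base at -54, a GC box at -45 and a TATA box at -24, counted from the start. The Ereg window held an AP-1 match at -215, the Epgn window a TATA box at -33, and the Btc window none of the 4 motifs. Over the windows of 21757 protein-coding genes, the cAMP response element was found in 1.7%, AP-1 in 6.18%, the TATA box in 11.9% and the GC box in 36.3%. In the windows of the other members, Erbb3 (-78) and Tgfa (-117) also held an AP-1 match. GC boxes were found once for Erbb3, at 2 places for Nrg1 and at 3 for Hbegf. The windows of Egfr and Erbb2 held none of the motifs. That of Nrg1, on chromosome 8 from 32408882 to 32409131, lies inside the gene, listed from 32304579 to 33374825 on the minus strand. It precedes a start within the gene and not its 5′ end. A match describes the letters of the window and not the binding of a factor.

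Per length, the family's transcripts formed a steep order that was nearly the same in every tumor. Levels between genes were compared in FPKM, the deposited measure, which corrects for depth and for the gene length listed with the counts. That length was 1215 bases for Areg, 11326 for Egfr and 15433 for Nrg1, and need not equal the length of the transcripts expressed. The order and the ratios between genes depend on these lengths. In CPM, which uses no length, Nrg1 (means of 10.7 in WT and 13.5 in C3-/- tumors) was nearer to Ereg (12 and 16.3). Erbb3 (31.2 ± 7.87 FPKM, SD, n = 8) and Hbegf (25.3 ± 4.24) stood at the top, followed by Erbb2 (20.4 ± 3.33) and Areg (16.3 ± 4.11), and then by Tgfa (6.62 ± 1.05), Btc (5.44 ± 0.932), Egfr (3.50 ± 0.794) and Ereg (3.40 ± 0.842). Nrg1 was low at 0.775 ± 0.159 FPKM and Epgn lowest at 0.103 ± 0.0652. Of 45 pairs of members, 43 differed in level within tumors (exact two-sided sign-flip permutation test of log2 FPKM over 8 tumors, adjusted p below 0.05 over the 45 pairs), and 39 pairs had the same order in all 8 tumors. The 2 pairs that did not differ beyond their spread were Erbb3 and Hbegf (mean log2 difference 0.28 ± 0.47, exact permutation test, adjusted p = 0.152) and Egfr and Ereg (0.05 ± 0.50, exact permutation test, adjusted p = 0.766). The steps from Hbegf to Erbb2, from Erbb2 to Areg and from Tgfa to Btc were small, at 1.24-, 1.27- and 1.22-fold, and each held in 7 of 8 tumors. Among the 16610 genes tested, the mean FPKM of Erbb3 lay at percentile 89.9, that of Egfr at 41.8 and that of Nrg1 at 16.4.

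**Figure D1:**
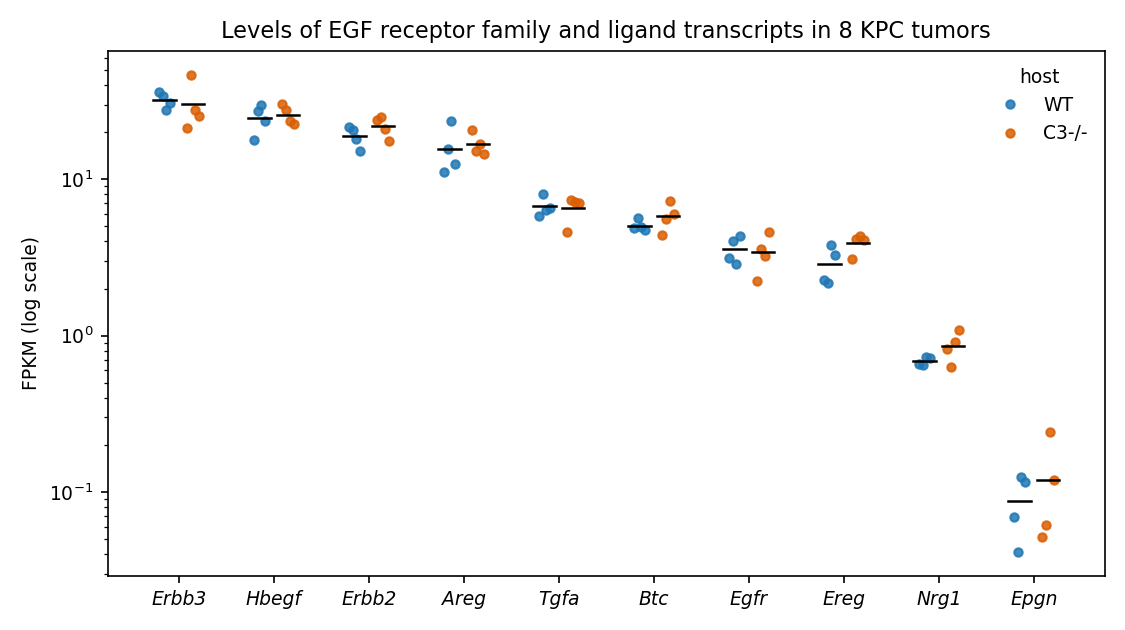
Deposited FPKM of each member on a log axis, with 1 point per tumor (4 WT, 4 C3-/-) and a black line at the mean of each genotype. Erbb3, Hbegf, Erbb2 and Areg lie above 11 FPKM in every tumor, Nrg1 lies near 0.775 and Epgn near 0.103.

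Erbb3 was the most abundant receptor transcript per length (FPKM) in 7 of 8 tumors, and Erbb2 was in C3-/- replicate 1. Erbb3, on chromosome 10 from 128403392 to 128425521, had 218, 206, 169 and 186 CPM in WT replicates 1 to 4 and 129, 285, 167 and 154 CPM in C3-/- replicates 1 to 4. The lowest and the highest tumor were thus both C3-/-, and the WT tumors lay between them. Erbb2, on chromosome 11 from 98303296 to 98328542, had 112, 109, 94.8 and 79.9 CPM in WT tumors and 127, 132, 110 and 93.0 CPM in C3-/- tumors. The ranges overlapped, and WT replicate 4 was lowest. Egfr, which lies on the same chromosome from 16702203 to 16868158, had 35.7, 45.7, 32.7 and 50.0 CPM in WT tumors and 25.5, 41.3, 37.1 and 52.7 CPM in C3-/- tumors, again with both extremes among C3-/- tumors. Within a tumor, the FPKM of Erbb3 was 5.51 to 13.0 times that of Egfr (median 9.02) and that of Erbb2 was 3.48 to 10.8 times that of Egfr (median 6.39). The ratio of Erbb3 to Erbb2 was lowest, at 0.88, in C3-/- replicate 1 and highest, at 2.02, in WT replicate 4. Erbb4, the remaining receptor, had 0 to 2 counts per tumor, at or under the floor of 3 counts.

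Per length, in FPKM, the ligand transcripts came mainly from Hbegf and Areg, whereas in CPM, which does not correct for length, Areg lay below Tgfa in every tumor. Hbegf (heparin-binding EGF-like growth factor), on chromosome 18 from 36637980 to 36648858, had 86.0, 133, 147 and 116 CPM in WT tumors and 147, 136, 115 and 110 CPM in C3-/- tumors. WT replicate 1 was lowest, and the genotypes overlapped. Areg had 13.5, 19.2, 28.9 and 15.4 CPM in WT tumors and 25.6, 18.7, 20.7 and 17.9 CPM in C3-/- tumors, so that WT tumors held both the lowest and the highest value. Tgfa (transforming growth factor alpha), on chromosome 6 from 86172205 to 86252701, had 37.5, 52.7, 41.8 and 43.3 CPM in WT tumors and 30.4, 48.2, 46.6 and 46.5 CPM in C3-/- tumors. C3-/- replicate 1 lay well below the other C3-/- tumors. Epgn had 2, 1, 3 and 5 counts in WT tumors and 2, 2, 7 and 4 counts in C3-/- tumors, too few to compare genotypes (log2 difference 0.38, SE 0.86, in the edgeR fit without a filter). The neuregulin gene Nrg1, which encodes a ligand of Erbb3 and lies on chromosome 8 from 32304579 to 33374825, had the lowest FPKM of the ligands that passed the filter among the members.

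By share of the summed ligand FPKM, Hbegf and Areg came first and next in every tumor. Hbegf took 39.0% to 47.1% (median 44.5%) and Areg 24.3% to 33.8% (median 26.3%). The smaller shares varied more between tumors, relative to their size. Tgfa took 7.24% to 13.6% (median 12.4%), Btc 6.87% to 12.1% (median 9.39%), Ereg 3.65% to 7.44% (median 5.93%) and Nrg1 1.03% to 1.96% (median 1.34%), while Epgn took at most 0.402%. The summed ligand FPKM was 55.8 ± 11.5 (SD, n = 4) for WT and 60.0 ± 3.53 (SD, n = 4) for C3-/- hosts, and the summed receptor FPKM was 54.6 ± 6.08 and 55.6 ± 13.4. Among the other EGF-type and neuregulin genes, Egf (0.301 ± 0.103 FPKM), Nrg2 (0.173 ± 0.111) and Nrg4 (1.19 ± 0.247, SD, n = 8 each) were low. Across the 8 tumors, the coefficient of variation of FPKM was 15.9% to 25.3% for the 9 members tested (median 20.5%), beside a median of 21.9% over all genes tested.

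**Figure D2:**
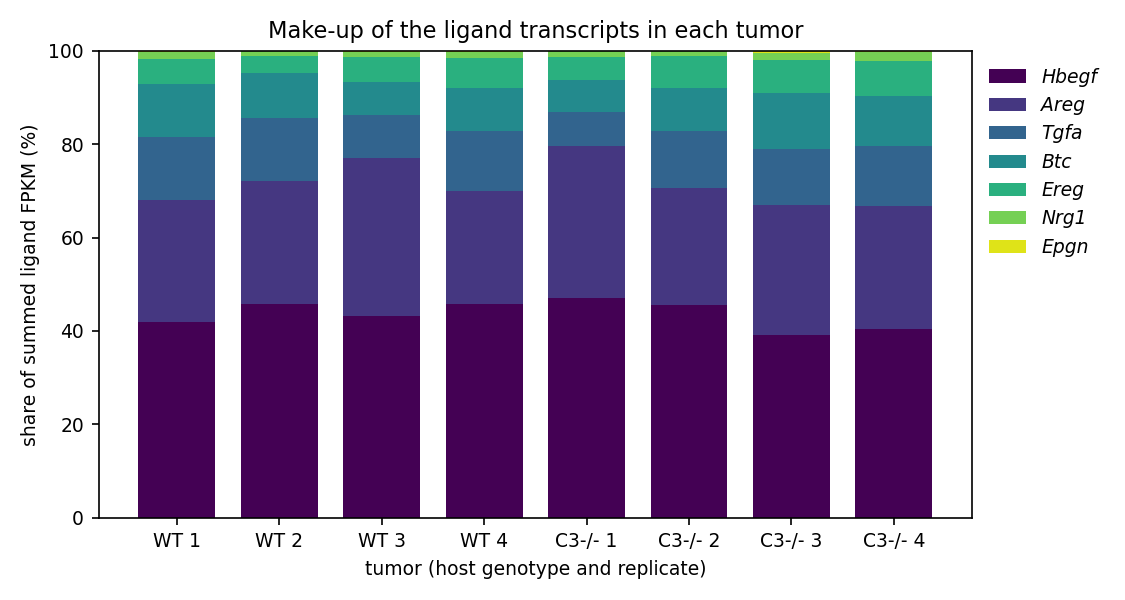
Stacked bars give the share of each ligand gene, in percent, in the summed FPKM of the 7 ligand genes for each of the 8 tumors. Hbegf fills 39.0% to 47.1% of every bar and Areg 24.3% to 33.8%.

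To determine whether deletion of C3 from the host altered this family in the tumor, the genotypes were compared gene by gene. For none of the 9 members tested did the difference between C3-/- and WT tumors pass the test. In edgeR's quasi-likelihood test 0 of 9 had an adjusted p below 0.05 (Benjamini-Hochberg over all 16610 genes), 0 of 9 had an unadjusted p below 0.05, and DESeq2 and limma-voom also called 0. Over all genes tested the share called was 0% at the adjusted and 5.11% at the unadjusted threshold, and DESeq2 called 0.0799% of the genes to which it gave an adjusted p. The ranges of the genotypes overlapped for every member tested, where 3.73% of all genes tested did not overlap. The 95% intervals of the log2 fold changes of the 9 members lay between -0.59 and 0.93, each taken alone, so a doubling or halving lay outside all of them. Log2 fold changes (C3-/- minus WT) were positive for 6 members and negative for 3, with a median of 0.11, beside 50% positive and a median of 0 over all genes tested.

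**Figure D3:**
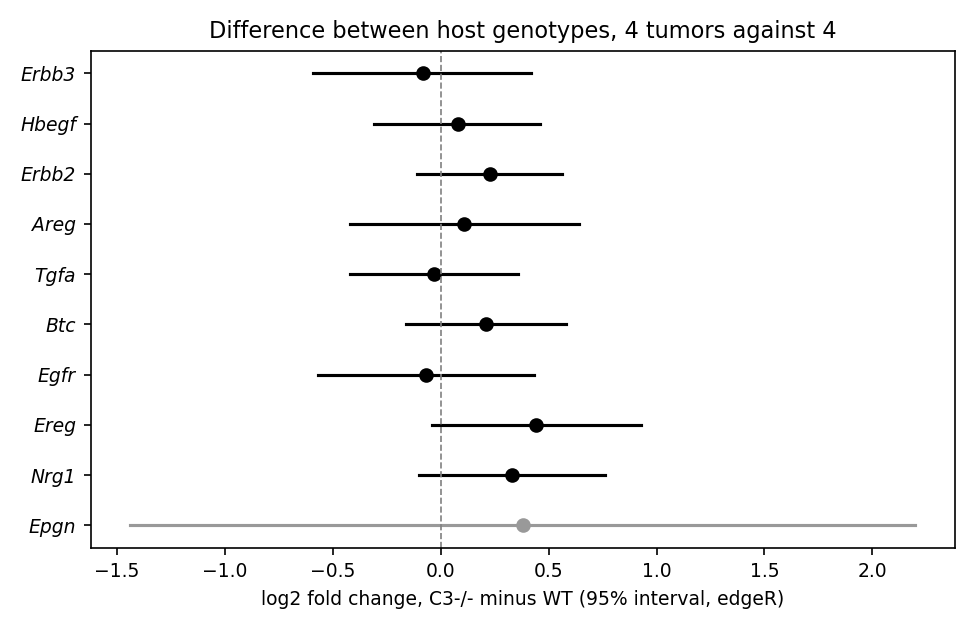
Points are log2 fold changes between C3-/- and WT tumors (4 against 4) from edgeR, and lines are their 95% intervals. Every interval spans 0, including that of Ereg (-0.04 to 0.93), and the grey point is Epgn, taken from the fit without a filter.

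Ereg had the largest log2 fold change of the members tested. Its level was 9.33, 9.04, 15.8 and 13.8 CPM in WT tumors and 12.9, 17.4, 17.9 and 17.2 CPM in C3-/- tumors. Of the C3-/- tumors, 3 lay above all WT tumors, and replicate 1 fell within the WT range. In edgeR the genotypes differed by 0.44 on the log2 scale (SE 0.22, adjusted p = 0.971, p = 0.0696 before adjustment), and an exact two-sided permutation test over all 70 ways to split the tumors gave p = 0.0857, where 0.0286 is the smallest p the design allows. With 1 tumor left out the difference ran from 0.33 to 0.60, with an adjusted p in edgeR of at least 0.448, and its unadjusted p was 0.0198 without WT replicate 3 and 0.0323 without C3-/- replicate 1 (edgeR). Ereg overlaps an antisense gene, Gm19610, by 152 bases, which had 38 to 73 counts beside 120 to 324 for Ereg, and the strand setting of the counting is not given in the sources used here.

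Nrg1, Erbb2 and Btc followed in size. Nrg1 had 0.657, 0.644, 0.734 and 0.716 FPKM in WT tumors and 0.821, 0.626, 0.913 and 1.09 FPKM in C3-/- tumors, and its counts differed by 0.33 on the log2 scale (SE 0.19, edgeR adjusted p = 0.985). WT tumors were close together, and C3-/- replicate 2 lay below all of them. With 1 tumor left out, the difference in Nrg1 ran from 0.20 (without C3-/- replicate 4) to 0.46 (without C3-/- replicate 2). The difference in Erbb2, whose values are given above, was 0.23 on the same scale (SE 0.15, edgeR adjusted p = 0.992), and 0.14 without WT replicate 4. Btc had 22.0, 25.9, 22.6 and 21.6 CPM in WT tumors and 20.1, 25.7, 33.2 and 27.6 CPM in C3-/- tumors, a log2 difference of 0.21 (SE 0.17, edgeR adjusted p = 0.999). It was 0.32 without C3-/- replicate 1 (edgeR adjusted p = 0.453) and 0.08 without C3-/- replicate 3.

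The remaining members were closer to 0. Log2 fold changes were 0.11 (SE 0.24) for Areg, 0.08 (SE 0.17) for Hbegf, -0.03 (SE 0.17) for Tgfa, -0.07 (SE 0.22) for Egfr and -0.08 (SE 0.23) for Erbb3, with adjusted p of 0.999 in edgeR for each. All 5 changed sign when a single tumor was left out. Without C3-/- replicate 1, Egfr stood at 0.09, Erbb3 at 0.05, Tgfa at 0.10 and Areg at -0.01. Without WT replicate 1, Areg stood at -0.03 and Hbegf at -0.06, and Tgfa stood at 0.07 without WT replicate 2 and Egfr at 0.04 without WT replicate 4. Farther from 0, Erbb3 stood at -0.38 without C3-/- replicate 2, Egfr at -0.25 without C3-/- replicate 4, Tgfa at -0.10 without WT replicate 1, and Areg at 0.37 and Hbegf at 0.19 without WT replicate 3. Of the genes that overlap these members on the opposite strand, Egfros had 2 to 17 counts Gm43917, which overlaps Tgfa, 0 to 7, and Mien1, which shares 9 bases with Erbb2, 65 to 244. No other gene of the table overlaps Areg, Hbegf, Btc, Epgn or Nrg1.

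Genes that handle the ligands or carry the signal also had no difference between genotypes that passed the test. Of 9 shedding genes (proteases, the iRhom genes, the iRhom-binding Frmd8 and an inhibitor), 16 feedback genes, 23 adaptor and cascade genes and 15 ERK target genes, 0 were called by edgeR or DESeq2 at an adjusted p below 0.05, and only Spry4 had an unadjusted p below 0.05 in edgeR. Over all genes tested, edgeR called 0% at the adjusted threshold, and 5.11% had an unadjusted p below 0.05 in edgeR. DESeq2 called 0.0799% of the genes to which it gave an adjusted p. The median log2 fold changes of the lists were -0.04, 0.04, -0.02 and 0.05, beside 0 over all genes tested. Values were positive for 3 of 9, 11 of 16, 9 of 23 and 8 of 15 genes, beside 50% over all genes tested. Spry4, a feedback inhibitor of receptor tyrosine kinase signaling, had 24.9, 31.6, 36.7 and 30.0 CPM in WT tumors and 38.7, 44.1, 39.0 and 33.8 CPM in C3-/- tumors. The log2 difference stood at 0.34 (SE 0.15, edgeR adjusted p = 0.971). The groups overlapped in C3-/- replicate 4 and WT replicate 3. The immediate early gene Egr1 stood at 0.39 (SE 0.23) and Phlda1, another transcript induced by ERK, at 0.34 (SE 0.18) on this scale, with adjusted p of 0.985 and 0.973 in edgeR. Among the proteases, Adam8 stood at -0.34 (SE 0.17, edgeR adjusted p = 0.971) and Adam17, the main sheddase of Areg, Hbegf and Tgfa, at 0.20 (SE 0.12, edgeR adjusted p = 0.990). Socs5, which promotes turnover of Egfr, stood at 0.22 (SE 0.15), the phospholipase gene Plcg1 at -0.16 (SE 0.12) and the MAPK kinase gene Map2k1 at -0.20 (SE 0.16). With 1 tumor left out, these values moved by over 1.5 times for Map2k1 (-0.06 without WT replicate 2, -0.32 without WT replicate 1). They also did for Egr1 (0.22 without WT replicate 2, 0.25 without C3-/- replicate 4) and Phlda1 (0.53 without WT replicate 3). The same held for Socs5 (0.14 without WT replicate 2) and Adam8 (-0.22 without WT replicate 3), and 0 of these genes passed the adjusted threshold. Of the other family genes, Egf (0.05), Nrg4 (0.06) and Nrg2 (-0.22) had log2 fold changes whose sign changed with 1 tumor left out.

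**Figure D4:**
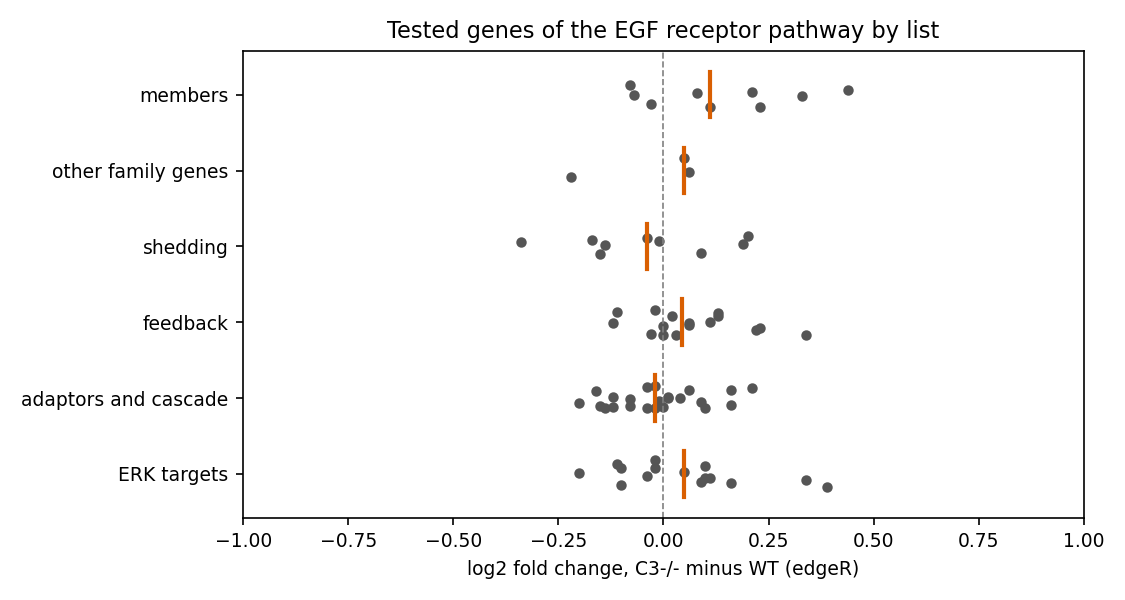
Points are the log2 fold changes (C3-/- minus WT, edgeR) of the genes that passed the filter in each list, spread vertically for legibility, and orange lines are list medians. All points lie between -0.34 and 0.44.

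Levels of members were next related to each other across the 8 tumors. Of 36 pairs among the 9 tested members, 20 had a positive Pearson r of log2 CPM, and 0 passed an adjusted p of 0.05 (exact permutation tests, smallest adjusted p = 0.268), while 3 had an unadjusted p below 0.05. Areg and Hbegf had r = 0.84 (exact permutation p = 0.00744, adjusted 0.268) and Spearman rho = 0.76 (exact permutation p = 0.0368, adjusted 0.55). Without the 2 tumors farthest from the median of Areg, r was 0.66. Egfr and Tgfa, a receptor and a ligand of it, had r = 0.78 (exact permutation p = 0.0219, adjusted 0.394) and rho = 0.62 (exact permutation p = 0.115, adjusted 0.907), and r = 0.50 without the 2 tumors farthest from the median of Egfr. Erbb3 and its ligand Nrg1 had r = -0.72 (exact permutation p = 0.0425, adjusted 0.51), rho = -0.90 (exact permutation p = 0.00456, adjusted 0.164) and r = -0.89 without the 2 tumors farthest from the median of Erbb3. As deviations from the genotype means, these 3 pairs had r of 0.84, 0.78 and -0.75. On that scale Tgfa and Btc (r = 0.81, against 0.69 over all tumors) and Erbb2 and Nrg1 (r = -0.80, against -0.27) had values of like size. Of the 36 pairs, 0 passed an adjusted p of 0.05 on it (exact permutation tests). The neighbors Areg and Ereg were not among these pairs.

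Levels of members were also related to marker lists of cell types, and no relation passed its test. Over 99 pairs of a tested member and a marker list, 0 passed an adjusted p of 0.05 (exact permutation tests, smallest adjusted p = 0.287), and 7 had an unadjusted p below 0.05. Btc and the acinar list had r = -0.89 (exact permutation p = 0.0029, adjusted 0.287), rho = -0.88 (exact permutation p = 0.00724, adjusted 0.573), r = -0.89 without the 2 tumors farthest from the acinar median, and r = -0.86 as deviations from the genotype means. For Tgfa and the acinar list, r was -0.78 (exact permutation p = 0.0147, adjusted 0.664), rho -0.76 (exact permutation p = 0.0368, adjusted 0.573), r without those tumors -0.69, and r of deviations from the genotype means -0.94. For Egfr, r was -0.66 (exact permutation p = 0.0764, adjusted 0.664) and rho -0.74 (exact permutation p = 0.0458, adjusted 0.573), with r = -0.13 without those tumors and r = -0.83 as deviations from the genotype means. Egfr was not among the 7 pairs and is given as the receptor of Btc and Tgfa. C3-/- replicate 1, highest for acinar RNA, was the lowest tumor for 4 of the 9 members tested (Egfr, Erbb3, Tgfa and Btc, in FPKM). The part of acinar tissue in the differences between genotypes was not tested. The other 5 pairs each had an adjusted p of 0.664 for r and of 0.573 for rho. Erbb3 and the macrophage list had r = -0.77 (exact permutation p = 0.0262) and rho = -0.74 (exact permutation p = 0.0458). Erbb2 had r = -0.76 (exact permutation p = 0.0316) and rho = -0.79 (exact permutation p = 0.0279) with the endothelial list, and r = -0.70 (exact permutation p = 0.0493) and rho = -0.69 (exact permutation p = 0.0694) with the fibroblast list. Ereg and the adipocyte list had r = -0.71 (exact permutation p = 0.041) and rho = -0.76 (exact permutation p = 0.0368), and Hbegf and the Schwann cell list r = -0.72 (exact permutation p = 0.0422) and rho = -0.69 (exact permutation p = 0.0694). Without the 2 tumors farthest from the median of the list, r was -0.33, -0.43, -0.48, -0.53 and -0.59 for these 5 pairs in the order given. As deviations from the genotype means, further pairs had r of like size. These included the epithelial list with Egfr (-0.78), Areg (0.79) and Hbegf (0.72). The others were Nrg1 with the fibroblast (0.81) and endothelial (0.74) lists, and Erbb3 with the fibroblast list (-0.71). On that scale 0 pairs of a member and a marker list passed an adjusted p of 0.05 (exact permutation tests).

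**Figure D5:**
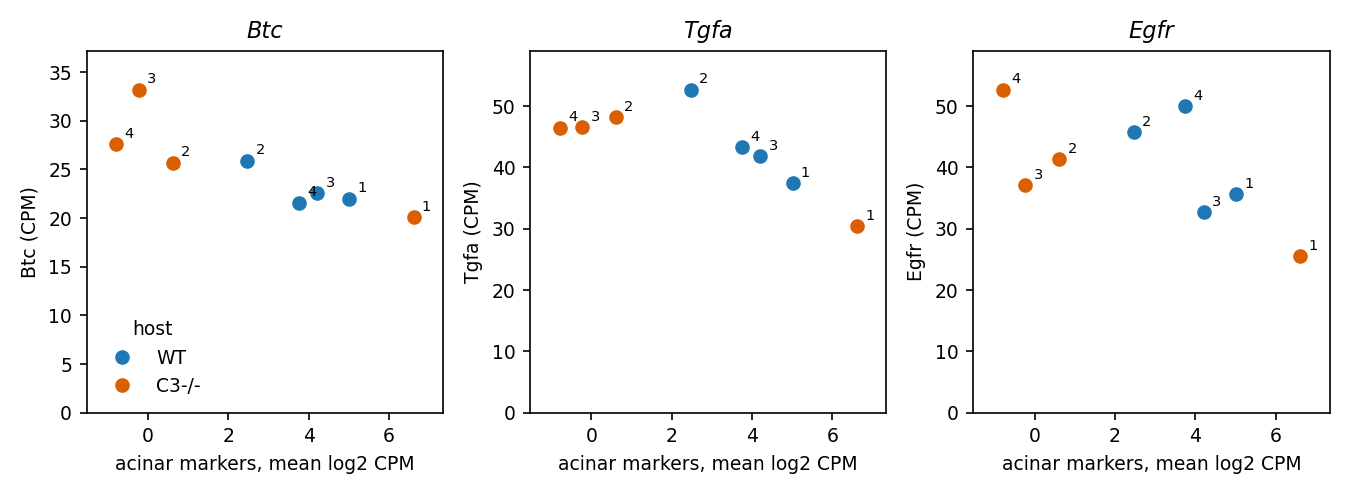
CPM of Btc, Tgfa and Egfr (vertical axes, from 0) against the mean log2 CPM of 7 acinar markers, with 1 point per tumor, colored by host and numbered by replicate. C3-/- replicate 1 lies at the far right at 20.1, 30.4 and 25.5 CPM.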

How the data were processed

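RNA from 4 WT and 4 C3-/- KPC tumors was analyzed. The authors prepared poly-A selected libraries, aligned paired reads to mm39 (STAR in the study's methods, HISAT2 2.0.5 in the submitters' processing notes) and deposited the raw gene counts. Beside them stand size-factor-normalized counts, a signal the authors obtained by dividing each count by 1 constant per tumor, and the authors' FPKM values, whose total is scaled by the same constants (0.945 to 1.05 times the total count). The authors' fold changes and p-values were not used. Total counts per tumor ran from 13266029 to 23354212, and counting error is only part of the spread.

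Counts were compared with edgeR 4.0.16 in R 4.3.3 (filterByExpr, minimum count 10, TMM, glmQLFit, glmQLFTest, Benjamini-Hochberg over 16610 genes), and CPM refers to the TMM-scaled total. Epgn did not pass the filter, and its value is from the fit without one. Alternatives were DESeq2 1.42.0, its size factors, limma-voom (limma 3.58.1), other filters, robust fits, a block on the replicate number and each tumor left out. The code was tested on simulated data. Relations used log2 of CPM plus 0.1, the order of levels log2 of FPKM plus 0.01. Same-numbered tumors had residual correlations of -0.03, 0.49, -0.36 and 0.59. These 4 values cannot decide whether the numbers pair the tumors, and the main fit used no pairing. No library repeated another (lowest chi-square per gene over 28 pairs, 15). Where nothing says which cage or day a tumor came from, p-values measure the spread between these samples.

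The members, the pathway and marker lists and the tests were chosen with earlier results of these data known. Named genes were all members, the other family genes, the 2 genes of lowest unadjusted p per remaining list, C3, and the 3 genes with the highest r to each tested member, of which 1 is not reported here. The submitters' labels gave the groups.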

Additional observations from a re-analysis of the deposited data

Results flagged for a closer look

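Among 40 groups of 4 tumors (20 genes in 2 genotypes), 2 held a value that lay far from the other 3, and chance flags about 1 in 20 groups. Both were C3-/- replicate 1. Its Tgfa level was 30.4 CPM, against 46.5 to 48.2 CPM in the other C3-/- tumors, and its Ereg level was 12.9 CPM, against 17.2 to 17.9 CPM. The same tumor held the most acinar RNA, at 1460 CPM summed over 7 genes, against 38.5 to 65.6 CPM in the other C3-/- tumors, and the part of acinar tissue in both values was not tested.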

How the results depend on the processing

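The count of members called was 0 under all 15 alternatives, and so was that of the other pathway genes. The count over all genes, 0 in edgeR, was 16 with DESeq2 and ran from 0 to 4 with 1 tumor left out, the 4 arising without C3-/- replicate 1. With the replicate number as a block it was 0, as it was for the members, and the block changed no call. The cause of these differences was not tested. With 1 tumor left out, log2 fold changes crossed 0 for Areg (-0.03 to 0.37), Hbegf (-0.06 to 0.19), Tgfa (-0.10 to 0.10), Egfr (-0.25 to 0.09), Erbb3 (-0.38 to 0.05), Egf (-0.19 to 0.31), Nrg2 (-0.79 to 0.11) and Nrg4 (-0.07 to 0.20), and stayed above 0 for Ereg (0.33 to 0.60), Nrg1 (0.20 to 0.46), Erbb2 (0.14 to 0.32) and Btc (0.08 to 0.32). Pathway genes kept their sign, with ranges of -0.43 to -0.22 for Adam8, 0.15 to 0.27 for Adam17, 0.25 to 0.43 for Spry4, 0.14 to 0.31 for Socs5, -0.23 to -0.11 for Plcg1, -0.32 to -0.06 for Map2k1, 0.25 to 0.53 for Phlda1 and 0.22 to 0.55 for Egr1. The number of pairs of members that differed in level, 43, ran from 41 to 42 with 1 tumor left out. No relation across tumors passed its threshold under any of the 11 alternatives. Epgn, at 1 to 7 counts, is limited by depth.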

Other observations

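For each tested member, the genes whose log2 CPM followed it most closely over the 8 tumors were listed, as a description of the highest r among all genes tested. Egfr was followed by Dmxl2 (r = 0.984), Mical2 (r = 0.982), an actin regulator, and Adamts16 (r = 0.976). Erbb2 was followed by Ngef (r = 0.978), C730027H18Rik (r = 0.974) and Adamtsl5 (r = 0.971), and Erbb3 by Ankrd16 (r = 0.975), Mtus1 (r = 0.967) and Smug1 (r = 0.965). Among the ligands, Areg was followed by Mettl18 (r = 0.968), Prkd2 (r = 0.961) and Mepce (r = 0.960), and Hbegf by Slc9b2 (r = 0.967), Tnfsf9 (r = 0.946) and Dhrs1 (r = 0.941). Tgfa was followed by Tspan12 (r = 0.980), Gm16144 (r = 0.967) and Gm37689 (r = 0.958), Ereg by Gm43737 (r = 0.968), Trmt10c (r = 0.968) and the RNA-binding protein gene Elavl1 (r = 0.958), Btc by Parp8 (r = 0.947), G930009F23Rik (r = 0.935) and Rasgrp1 (r = 0.925), and Nrg1 by Abcg3 (r = 0.938) and Flt3 (r = 0.931). These are the extremes of 16610 genes over 8 tumors and carry no test, and no member was among the closest genes given for another.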
